A study of Mus musculus with 6 samples.

Results

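ULK1 (Unc-51-like autophagy activating kinase 1), the other subunits of its complex and the kinases that control it were followed in LPS-stimulated BV2 cells, an immortalised mouse microglial line, with and without PGC-1α overexpression. The set held 10 genes, namely Ulk1, Ulk2, Atg13, Rb1cc1, Atg101, Prkaa1, Prkaa2, Mtor, Rptor and Becn1. Its members were chosen by function, but with earlier results of these data known, which limits the comparison of their counts with all genes. Every probe whose transcript accession belongs to 1 of these genes in RefSeq was kept. This gave 18 of 56605 probes on the array and 10 of 23462 genes with a matched probe.

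The samples were 3 arrays of control BV2 cells, labelled as without PGC-1α, and 3 arrays of BV2 cells labelled as overexpressing PGC-1α, all treated with LPS and all hybridised as single-colour Agilent arrays. The culture methods describe LPS at 500 ng/ml for 6 h, without naming the arrays, and overexpression from a lentiviral vector with puromycin selection against a negative-control lentivirus. No source used here gives the arrays of a group as separate cultures, so p-values measure the spread between these arrays, which may be technical. Replicates 1 and 2 of each group lay on slide 1 and replicate 3 on slide 2, and the slides were scanned separately.

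ULK1 and its paralogue ULK2 are serine/threonine kinases that start autophagosome formation. They work in a complex with ATG13, the scaffold FIP200 (encoded by Rb1cc1) and ATG101. AMPK, the energy-sensing kinase whose catalytic subunits are encoded by Prkaa1 and Prkaa2, phosphorylates ULK1 to activate it, whereas mTORC1, which contains the kinase MTOR and the scaffold RAPTOR (Rptor), phosphorylates ULK1 and ATG13 to hold the complex inactive. Beclin 1 (Becn1) belongs to the class III PI3-kinase complex that ULK1 acts on next. In microglia the pathway clears damaged mitochondria and protein aggregates. The arrays measured the mRNAs of these proteins, not their phosphorylation.

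The 250 bases before an annotated start are shown for the members that passed the test. Each gene has several annotated transcripts, so a window can lie within another transcript of the same gene. The annotated Ulk2 gene reaches to chr11:61855334, so most of its window lies inside the gene. Ulk1 reaches to chr5:110810120, so its window overlaps the gene in part. These windows are therefore not wholly upstream sequence. The sequences are those of RefSeq on GRCm38.p6, written 5′ to 3′ in the direction of the gene, and 8 of the 10 members were matched. Rb1cc1 and Becn1 were not. Capitals mark matches, on either strand and overlapping copies included, to the GC box (GGGCGG), the core of the nuclear respiratory factor NRF1 palindrome (TGCGCA), the GABP site (CCGGAAG), the extended half-site of oestrogen-related receptors (AAGGTCA) and the E-box read by TFEB (CACGTG).
Ulk1, chr5:110810082-110810331, - strand: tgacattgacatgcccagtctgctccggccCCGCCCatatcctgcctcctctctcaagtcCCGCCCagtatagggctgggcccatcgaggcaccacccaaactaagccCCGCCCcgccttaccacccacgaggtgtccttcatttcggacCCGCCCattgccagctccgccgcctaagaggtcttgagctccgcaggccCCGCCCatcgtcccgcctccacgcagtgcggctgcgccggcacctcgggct
Ulk2, chr11:61855093-61855342, - strand: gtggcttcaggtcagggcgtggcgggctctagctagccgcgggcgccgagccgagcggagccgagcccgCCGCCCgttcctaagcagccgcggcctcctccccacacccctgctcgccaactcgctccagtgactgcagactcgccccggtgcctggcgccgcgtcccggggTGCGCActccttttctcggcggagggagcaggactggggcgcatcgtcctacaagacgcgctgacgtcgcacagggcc
Prkaa1, chr15:5143611-5143860, + strand: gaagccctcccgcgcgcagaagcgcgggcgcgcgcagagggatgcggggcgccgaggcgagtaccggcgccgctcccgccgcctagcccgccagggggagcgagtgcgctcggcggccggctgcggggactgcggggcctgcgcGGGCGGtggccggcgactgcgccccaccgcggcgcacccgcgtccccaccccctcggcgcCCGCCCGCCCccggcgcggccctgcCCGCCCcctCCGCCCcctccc
Rptor, chr11:119602655-119602904, + strand: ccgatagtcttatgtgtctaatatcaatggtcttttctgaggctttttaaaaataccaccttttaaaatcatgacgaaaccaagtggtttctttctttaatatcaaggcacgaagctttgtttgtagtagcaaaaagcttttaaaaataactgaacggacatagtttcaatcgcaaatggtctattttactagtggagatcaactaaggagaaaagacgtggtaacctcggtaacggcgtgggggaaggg

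The Ulk1 window held 5 GC boxes and the Prkaa1 window 5, whereas Ulk2 held 1 GC box and 1 NRF1 core and Rptor no match. GC boxes were in 5 of the 8 member windows and in 32.7% of the 32851 windows in the table. The GABP site was in 2 of the 8 (Atg101 and Mtor) and in 6.91% of all windows, and the NRF1 core in 1 of the 8 and in 6.43%. The half-site and the E-box were in 0 of the 8 windows, and in 4.08% and 6.02% of all windows. No match says only that these letters are absent from these 250 bases. The Prkaa1 window was 85.2% G or C, the Ulk1 window 67.2%, the Ulk2 window 72.8% and the Rptor window 37.6%.

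Signals are given as log2 of the background-subtracted intensity minus that array's 75th percentile, so that 0 is the 75th percentile of the array and 1 unit is a 2-fold difference. The 75th percentile lay at an intensity of 1617 to 1893 on the control arrays and 856 to 1268 on the PGC-1α arrays, and 41122 to 45165 of 59305 non-control spots per array were well above background. On this scale the median gene was 0.23 higher with PGC-1α, and after quantile normalization 0.02 higher, so member values are given under both. Of 17172 genes tested with limma, 56.1% passed an adjusted p of 0.05 (45.1% after quantile normalization), and 65.3% of those were higher (50.8% after quantile normalization). The 2 probes of Ppargc1a, the gene of PGC-1α, were well above background on no more than 2 arrays of a group and were not tested, with differences of 1.14 and 0.26 on the log2 scale, and where they lie relative to the cloned transgene is not given in the sources used here. Of 11 markers of microglia and macrophages, 9 were well above background on all 6 arrays, while Cx3cr1 and P2ry12 were so on none.

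Of the 10 members, 4 fell with PGC-1α (Ulk1, Ulk2, Prkaa1 and Rptor) against 19.5% of all genes tested, and 0 rose against 36.7%. The other 6 did not pass the test. After quantile normalization 5 members fell, with Mtor added, against 22.2% of all genes, and 0 rose against 22.9%. The median log2 fold change of the members was -0.37, beside 0.23 for all genes, and -0.43 beside 0.02 after quantile normalization. On the first scale 9 of the 10 members lay below the median of all genes, Atg101 being the exception, and 7 did after quantile normalization. Without quantile normalization, in 5 members every PGC-1α array measured was lower than every control array, against 22.8% of all genes. In 2 (Atg101 and Becn1) every one was higher, against 42.8%, and the groups of Atg101 overlapped after quantile normalization. Counted by probe, 7 of the 17 tested member probes fell, against 21.1% of all probes tested, and 0 rose, against 31.1% (52.2% of all probes passed in either direction). After quantile normalization 6 member probes fell, against 23.6%, and 0 rose, against 19.4%. Both counts include 1 dim Rb1cc1 probe, A_52_P542172, that was well above background in controls only and so entered the test through the group where it was high.

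**Figure D1:**
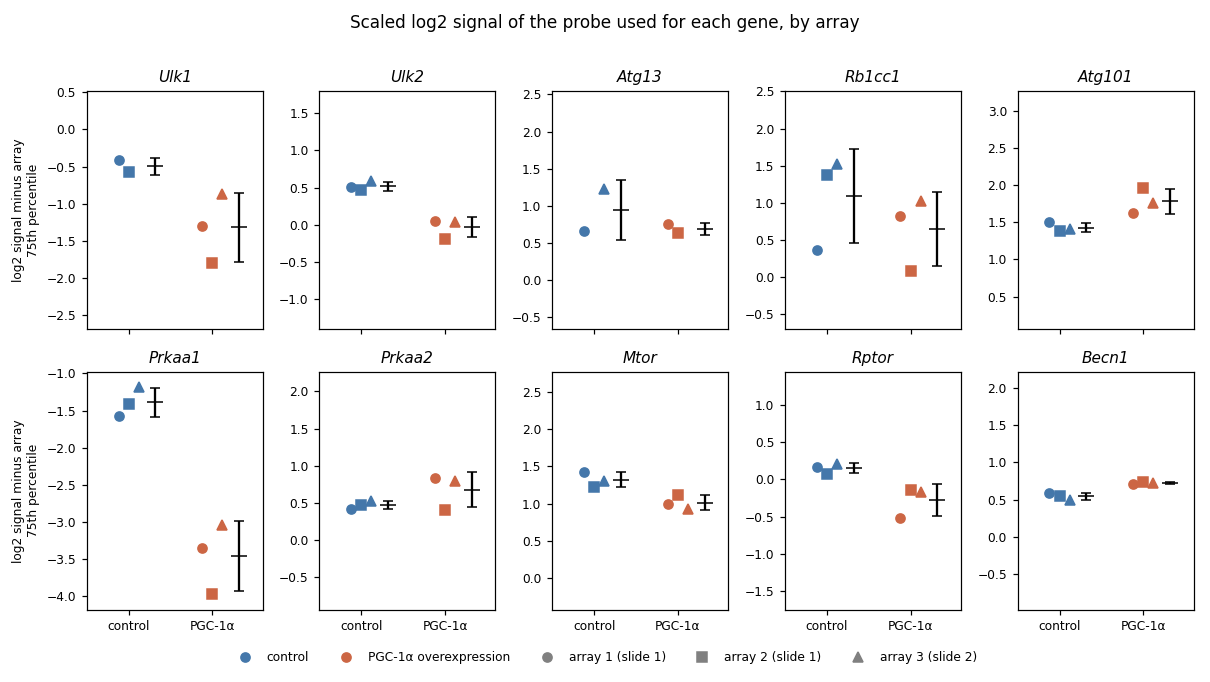
Log2 signal minus the array's 75th percentile (y axis, each panel spanning the same range) for the probe used for each member, with 1 point per array, shapes for the array number and bars for mean ± SD of each group. Prkaa1 showed the widest gap, from -1.57 to -1.19 in controls against -3.98 to -3.04 with PGC-1α, while the groups of Atg13, Rb1cc1 and Prkaa2 overlapped.

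Ulk1 encodes the kinase that gives the complex its name, and it was measured by 2 probes, both lower with PGC-1α. The brighter probe, A_55_P1977314, read -0.41 and -0.58 on control arrays 1 and 2 and -1.30, -1.79 and -0.87 on PGC-1α arrays 1, 2 and 3. Its spot on control array 3 was marked as an outlier by the scanner software and left out. The PGC-1α arrays were all below the 2 control arrays measured, by a log2 fold change of -0.82 (SE 0.26, 95% interval -1.44 to -0.21, limma adjusted p = 0.0318), which is 1.77-fold lower. After quantile normalization the difference was -0.80 (limma adjusted p = 0.0472). Adjusted over probes in place of genes, the limma adjusted p was 0.0347, and 0.05 after quantile normalization, which missed the threshold.

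The second Ulk1 probe, A_55_P2736170, was measured on all 6 arrays, at -0.69, -1.07 and -1.18 in controls and -1.61, -1.40 and -1.43 with PGC-1α. Its groups did not overlap, although control array 1 stood above the other two. The difference was -0.50 (SE 0.16, limma adjusted p = 0.0306 over probes), or 1.41-fold lower, and -0.46 after quantile normalization (limma adjusted p = 0.0476). Within arrays, the brighter probe minus the second moved by -0.23 with PGC-1α, in a comparison of 2 against 3 arrays whose exact permutation p (0.9 here) cannot go below 0.1. With the outlier spot kept at 0.14, the brighter probe gave -1.03 (limma adjusted p = 0.0118).

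The Ulk1 call rested on few arrays. Without control array 1 or 2 the brighter probe no longer had 2 control values, and the second probe then gave -0.35 (limma adjusted p = 0.0869) and -0.54 (limma adjusted p = 0.0519). Without PGC-1α array 1 the brighter probe gave -0.84 (limma adjusted p = 0.0747). Within slide 1 the brighter probe differed by -1.05 and the second by -0.62, and within slide 2 the second differed by -0.25, with 1 array per group there. The direction was the same in all 18 alternative settings, and 14 of them kept the call. These counts follow the probe, or mean of probes, that stood for the gene in each setting. The second probe taken alone stayed lower but missed the threshold with no filter on dim probes. With normexp background correction the second probe gave -0.37 under 75th percentile scaling and under quantile normalization, and missed the threshold in each. Of all genes tested, 10.2% had a log2 fold change at or below that of Ulk1.

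Ulk2, the paralogue that can replace ULK1 in the complex, also fell. Its brighter probe read 0.51, 0.46 and 0.59 in controls and 0.05, -0.19 and 0.04 with PGC-1α. Every PGC-1α array was lower than every control array, and the control arrays lay within a narrow span. The log2 fold change was -0.55 (SE 0.13, limma adjusted p = 0.00727), 1.47-fold lower, with -0.57 after quantile normalization (limma adjusted p = 0.00637) and -0.56 within slide 1 and -0.55 within slide 2. The second probe read -0.91, -0.99 and -0.84 in controls and -1.28, -1.39 and -1.12 with PGC-1α. It too separated the groups, by -0.35 (limma adjusted p = 0.0492 over probes), but missed the threshold after quantile normalization (-0.32, limma adjusted p = 0.0649). Ulk2 passed in all 18 alternative settings, with differences from -0.67 to -0.45.

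Atg13, which encodes a subunit that mTORC1 phosphorylates, had a single probe with values on 4 arrays. It read 0.66 and 1.23 on control arrays 1 and 3 and 0.75 and 0.63 on PGC-1α arrays 1 and 2. The groups overlapped, and control array 3 alone stood apart from the remaining values. The difference of -0.25 (SE 0.23, limma adjusted p = 0.37) took the opposite sign, 0.03, with the slide as a block, so no direction is given for Atg13.

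Rb1cc1, which encodes the scaffold FIP200, was measured by 6 probes. The brightest read 0.36, 1.37 and 1.53 in controls and 0.83, 0.09 and 1.03 with PGC-1α, a difference of -0.44 (SE 0.34, limma adjusted p = 0.301). Control array 1 was the lowest control on every one of the 6 probes, and it lay within the range of the PGC-1α arrays on the brightest probe. Without that array the difference was -0.80 and passed the threshold narrowly (limma adjusted p = 0.05 after rounding). In the other 5 probes the log2 fold changes were -0.15, -0.33, -0.54, -0.79 and -2.01. All were negative with the 6 arrays, but the first of them, of A_51_P332100, was 0.07 without control array 3.

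Of these, the one that passed the test was A_52_P542172, a dim probe well above background on 3 of 3 control arrays and 0 of 3 PGC-1α arrays. It read -6.44, -4.74 and -5.04 in controls and -7.41, -8.41 and -6.44 with PGC-1α. Control array 1 and PGC-1α array 3 were at nearly the same level. Against the lowest signal well above background on those arrays the probe was 1.85-fold lower with PGC-1α (limma adjusted p = 0.0174 over probes for the fitted difference). This is not a firm minimum, since the groups overlapped and the probe entered the test through the controls, where it was high. With normexp background correction the fitted difference was -0.0069 (limma adjusted p = 0.974) under 75th percentile scaling and -0.47 (limma adjusted p = 0.0269) with quantile normalization. Only A_55_P2722672 came close among the rest, at -0.79 (limma adjusted p = 0.0659 over probes).

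**Figure D2:**
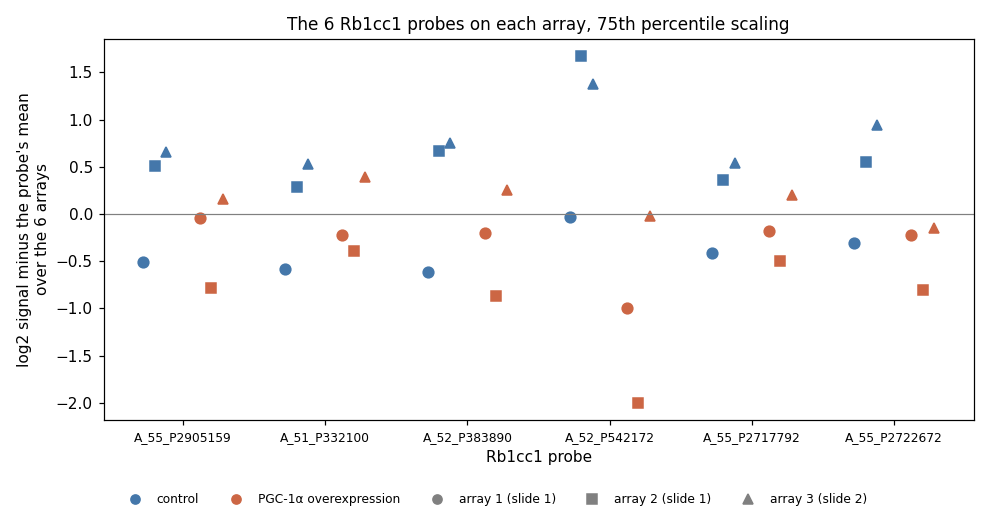
Log2 signal of each of the 6 Rb1cc1 probes (x axis) on each array, minus the probe's mean over the arrays (y axis), after 75th percentile scaling, with controls in blue, PGC-1α arrays in orange and shapes for the array number. On all 6 probes control array 1 lies below control arrays 2 and 3.

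Atg101, which stabilises ATG13 in the complex, pointed the other way. It read 1.50, 1.38 and 1.41 in controls and 1.62, 1.96 and 1.76 with PGC-1α. All PGC-1α arrays were higher than all controls, but the difference of 0.35 (SE 0.13, limma adjusted p = 0.0501) fell just outside the threshold. It was 0.17 after quantile normalization (limma adjusted p = 0.242), where the groups overlapped. It passed in 4 of 18 alternative settings. Relative to the median of all genes Atg101 was 0.12 higher.

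Among the kinases upstream, Prkaa1, which encodes the α1 catalytic subunit of AMPK, fell most of all members. Its probe read -1.57, -1.41 and -1.19 in controls and -3.36, -3.98 and -3.04 with PGC-1α. The groups were separated by more than 1 unit on the log2 scale, and the spot was well above background on each of the 6 arrays. The log2 fold change was -2.07 (SE 0.23, 95% interval -2.61 to -1.53, limma adjusted p = 0.00048), which is 4.19-fold lower. Of all genes tested, 1.23% changed by as much or more in this direction.

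The Prkaa1 difference was -2.17 within slide 1 and -1.86 within slide 2, and -2.13 after quantile normalization (limma adjusted p = 0.000807). It passed in all 18 alternative settings and ranged from -2.28 to -1.43, the smallest of these coming from normexp background correction. A single probe measured Prkaa1, so no other probe of the array checks it.

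Prkaa2 encodes the α2 catalytic subunit of AMPK, and its tested probe did not follow Prkaa1. That probe read 0.42, 0.47 and 0.52 in controls and 0.83, 0.41 and 0.80 with PGC-1α. PGC-1α array 2 lay below all controls and the other two above them. The difference was 0.21 (SE 0.15, 95% interval -0.13 to 0.54, limma adjusted p = 0.253), and without PGC-1α array 2 it was 0.34 (limma adjusted p = 0.0387). The second Prkaa2 probe was marked as an outlier on control arrays 1 and 2 and was not tested. Its remaining control value, 0.29, lay within the PGC-1α values of -0.32, -1.15 and 0.29. With the outlier spots kept its controls read -0.0047, 0.09 and 0.29. All of these lay above PGC-1α arrays 1 and 2 but not above array 3, so this probe did not repeat the rise of the tested one.

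Mtor, the kinase of mTORC1 and mTORC2, read 1.43, 1.22 and 1.31 in controls and 1.00, 1.12 and 0.92 with PGC-1α. The groups did not overlap, and the gap between them was smaller than the spread within either. The difference of -0.31 (SE 0.12, limma adjusted p = 0.0646) missed the threshold on the 75th percentile scale and passed after quantile normalization (-0.43, limma adjusted p = 0.0157). It passed in 7 of 18 alternative settings and was lower in all of them, from -0.47 to -0.25.

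Rptor, the scaffold that presents substrates to mTORC1, read 0.16, 0.08 and 0.21 in controls and -0.53, -0.14 and -0.17 with PGC-1α. All PGC-1α arrays were lower, array 1 by the most. The difference was -0.43 (SE 0.14, limma adjusted p = 0.0334), 1.35-fold lower, and -0.42 after quantile normalization (limma adjusted p = 0.0365). Leaving out PGC-1α array 1 gave -0.30 (limma adjusted p = 0.124), and leaving out any 1 of the 3 control arrays also ended the call, with differences from -0.46 to -0.40.

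Becn1, which encodes Beclin 1, read 0.59, 0.55 and 0.49 in controls and 0.72, 0.74 and 0.73 with PGC-1α. The groups did not overlap and the PGC-1α arrays were nearly equal. The difference of 0.19 (SE 0.11, 95% interval -0.07 to 0.44) did not pass the test (limma adjusted p = 0.185, and 0.262 after quantile normalization), and it was close to the 0.23 by which the median gene was higher on this scale.

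**Figure D3:**
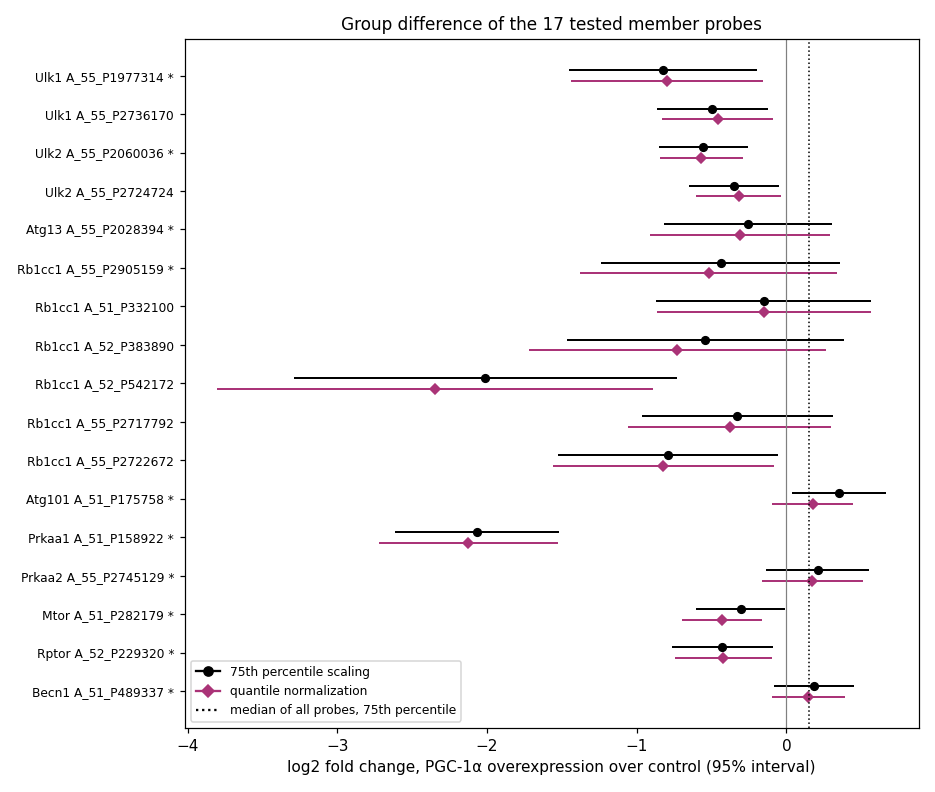
Log2 fold change of PGC-1α overexpression over control (x axis, with 95% intervals) for the 17 tested member probes under 75th percentile scaling (black circles) and quantile normalization (purple diamonds), an asterisk marking the probe used for the gene and the dotted line the median of all probes at 0.15. Atg101 moved from 0.35 to 0.17 between the scalings. The intervals of the Ulk1, Ulk2, Prkaa1, Rptor and Mtor probes stayed below 0 under both. So did those of the Rb1cc1 probes A_55_P2722672 and A_52_P542172. The intervals are not adjusted for the number of probes tested.

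Differences between members within an array do not change when a constant is subtracted from that array. Ulk1 was therefore set against each of the other 9 members within arrays. Quantile normalization can change these differences, and the values here are without it. With the brighter Ulk1 probe, which had 2 control values, the adjusted p was 0.4 for each of the 9 pairs by exact permutation, which with so few arrays cannot go below 0.1 unadjusted. With the second probe, on 6 arrays, the difference from Ulk1 to Atg101 moved by -0.85, to Prkaa2 by -0.70 and to Becn1 by -0.68, and to Prkaa1 by 1.57, with no overlap between the groups in any of the 4. Each reached an exact permutation p of 0.1, the smallest that 3 against 3 arrays allow, or 0.225 after adjustment over the 9 pairs. Against Ulk2, Rb1cc1, Mtor and Rptor the change was -0.19 to 0.06, and against Atg13, on 4 arrays, -0.31, with groups that overlapped in all 5.

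Beyond the members, 91 genes of the pathway were listed, and 88 were tested. Of these 17 fell (19.3%, beside 19.5% of all genes) and 22 rose (25%, beside 36.7%), with a median log2 fold change of 0.03, below the 0.23 of all genes. After quantile normalization 17 fell and 12 rose (median -0.04 beside 0.02), where 22.2% and 22.9% of all genes did. The counts of each list below, marker lists included, are to be read beside these shares of all genes.

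Of 3 other ULK family kinases, 2 rose and 1 fell (median 0.44), and 0 rose and 1 fell after quantile normalization. Ulk3 rose by 0.56 (limma adjusted p = 0.0229), a call that was lost after quantile normalization (0.23, limma adjusted p = 0.246), and Ulk4 fell by 0.43 on the log2 scale (limma adjusted p = 0.0301). Of 9 genes of the autophagy PI3-kinase complex, 3 fell and 1 rose (median -0.11), with 3 and 0 after quantile normalization. Pik3r4, the regulatory subunit VPS15, fell by 0.83 on the log2 scale (SE 0.12, limma adjusted p = 0.00149), and Uvrag, a subunit of the complex that acts on later vesicles, was highest at 0.52 (limma adjusted p = 0.0105, and 0.258 after quantile normalization). Pik3c3, the catalytic subunit, had a difference of -0.11 (limma adjusted p = 0.485) and Atg14, which directs the complex to forming autophagosomes, of -0.01 (limma adjusted p = 0.96).

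Of 27 genes of autophagosome formation 11 rose (40.7%, beside 36.7% of all genes) and 2 fell, with a median of 0.22 beside 0.23, and 6 rose and 2 fell after quantile normalization (median 0.08 beside 0.02). Atg9b and Atg9a, which encode membrane proteins of vesicles that seed autophagosomes, rose by 0.88 (limma adjusted p = 0.0014) and 0.80 (limma adjusted p = 0.00206), and kept their calls after quantile normalization, at 0.81 and 0.82. Map1lc3b, which encodes the autophagosome marker LC3B, was 0.62 higher on the 75th percentile scale (limma adjusted p = 0.00754) and 0.03 higher after quantile normalization (limma adjusted p = 0.837). Sqstm1, the cargo receptor p62, went from 0.49 (limma adjusted p = 0.0134) to -0.03 (limma adjusted p = 0.856), and Gabarapl1, an LC3 relative, from 0.38 (limma adjusted p = 0.0329) to 0.18 (limma adjusted p = 0.201). Among the genes that fell were Atg4d, a protease that processes LC3 relatives, at -0.83 (limma adjusted p = 0.00129), and Wipi2, which binds the phosphoinositide made on the forming membrane, at -0.50 (limma adjusted p = 0.0102).

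Of 13 AMPK subunits and upstream kinases, 2 fell and 2 rose (median 0.05). Camkk2, the calcium-dependent kinase that activates AMPK, fell by 0.83 on the log2 scale (SE 0.12, limma adjusted p = 0.00121), and Prkag3, a γ subunit, was highest at 0.93 (limma adjusted p = 0.0207). Stk11, which encodes LKB1, had a difference of 0.03 (limma adjusted p = 0.855, and -0.27 after quantile normalization), the γ subunit Prkag1 of 0.34 (limma adjusted p = 0.0502) and the β subunit Prkab1 of -0.19 (limma adjusted p = 0.234). After quantile normalization 3 of the list fell, Prkab1 among them at -0.37 (limma adjusted p = 0.0303), and 2 rose.

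Of 31 genes of the mTOR complexes and their inputs, 29 were tested. Of these 7 fell (24.1%, beside 19.5% of all genes) and 4 rose (13.8%, beside 36.7%), with a median of 0.02. After quantile normalization 6 fell and 3 rose. Fnip2, a partner of folliculin, fell by 1.92 on the log2 scale (SE 0.20, limma adjusted p = 0.000308), and Rragd, a Rag GTPase that brings mTORC1 to the lysosome, rose by 0.73 (limma adjusted p = 0.00356). The mTOR complex subunit Mlst8 rose by 0.48 (limma adjusted p = 0.0213). Akt1s1 (0.15, limma adjusted p = 0.514) and Deptor (0.02, limma adjusted p = 0.894), which encode inhibitory subunits, did not pass, and both turned sign after quantile normalization, to -0.03 and -0.12. Tsc1, whose product restrains mTORC1, fell by 0.48 on the log2 scale (limma adjusted p = 0.0427, and 0.0619 after quantile normalization), whereas its partner Tsc2 stood at 0.11 (limma adjusted p = 0.476) and at -0.08 after quantile normalization. Rheb, the GTPase they act on, was at 0.73 (limma adjusted p = 0.0657) and Sesn2, a leucine sensor, at -0.29 (limma adjusted p = 0.142).

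Of 8 transcription factors and coactivators of autophagy genes, 7 were tested, 2 rose and 2 fell, with 1 and 2 after quantile normalization. Foxo3 rose by 1.13 (SE 0.14, limma adjusted p = 0.000659) and Mitf fell by 1.06 on the log2 scale (limma adjusted p = 0.000808), both under either scaling, but with the mean of its probes Mitf stood at -0.23 (limma adjusted p = 0.288). Esrra, which encodes the PGC-1α partner ERRα, was 0.46 higher (limma adjusted p = 0.0172) on the 75th percentile scale and 0.19 higher after quantile normalization (limma adjusted p = 0.195). Tfeb, the lysosomal regulator, had a difference of -0.31 (limma adjusted p = 0.11).

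**Figure D4:**
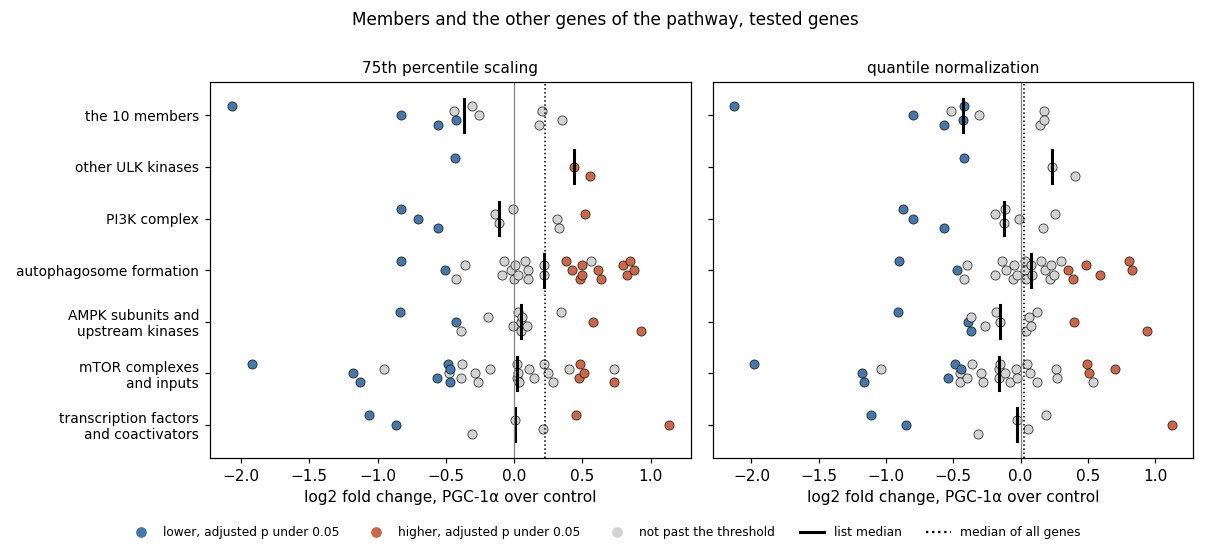
Log2 fold change of PGC-1α over control (x axis) for the members and 6 lists of pathway genes (y axis) under 75th percentile scaling (left) and quantile normalization (right), 1 point per tested gene, blue where lower and orange where higher past the threshold, with list medians as black bars and the median of all genes dotted. The members' median lies at -0.37 on the left and -0.43 on the right.

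The genes whose arrays most resembled those of Ulk1, each centred on its own mean, were sought among 16235 tested genes. For the brighter probe, over 5 arrays, they were Zfyve26, Mmel1 and Papolg, with root mean square differences of 0.073, 0.077 and 0.080 on the log2 scale. For the second probe, over 6 arrays, they were Zmym3, Hpn and Nfam1, with 0.050, 0.055 and 0.056, so the choice of probe set the names. Closeness over 5 or 6 arrays of 2 groups says nothing of shared function.

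Without quantile normalization, the microglia, fibroblast and neuron lists each held markers that rose and markers that fell past the threshold. The astrocyte markers that passed only rose, and no oligodendrocyte marker passed. Of 11 microglia and macrophage markers 9 were tested: Itgam (0.75), Csf1r (0.67) and Cd68 (0.46, but -0.16 after quantile normalization) rose, and Tmem119 fell by 2.68 on the log2 scale (limma adjusted p = 4.42e-05). After quantile normalization 0 of these rose and 2 fell, Tmem119 at -2.71 and Adgre1 at -0.47. Of 4 fibroblast markers 3 rose, and Pdgfra fell by 1.63 on the log2 scale (limma adjusted p = 0.000177), with 2 higher and 1 lower after quantile normalization. Of 3 neuron markers tested 2 rose and Tubb3 fell by 0.63 on the log2 scale (limma adjusted p = 0.00457), with 1 and 1 after quantile normalization. The marker that stayed higher was Rbfox3, a dim gene well above background on 2 control arrays and 3 PGC-1α arrays. It entered the test only through the PGC-1α group, where it was high. Snap25, the other that rose, stood at 0.08 after quantile normalization (limma adjusted p = 0.582). Of 3 astrocyte markers tested 2 rose under either scaling, and of 4 oligodendrocyte markers 0 passed under either.

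The summed signal of a list is carried by its brightest genes and was computed on 1 scaling only. On the log2 scale, relative to the array's 75th percentile, it was 6.17 to 6.23 in controls and 6.65 to 6.83 with PGC-1α for microglia and macrophages, 3.94 to 4.05 and 4.73 to 5.0 for fibroblasts, 4.60 to 4.89 and 5.19 to 5.64 for neurons, -2.04 to -1.82 and -1.28 to -0.92 for astrocytes, and 0.02 to 0.17 and 0.16 to 0.32 for oligodendrocytes. Well above background on all 6 arrays were 4 of 4 fibroblast, 3 of 4 astrocyte, 3 of 4 oligodendrocyte and 2 of 4 neuron genes, while Slc1a3 and Syt1 were so on none. The part of these lists in the members' differences was not tested. In RNA of whole cultures, fewer cells expressing a gene and less RNA per cell cannot be told apart.

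**Figure D5:**
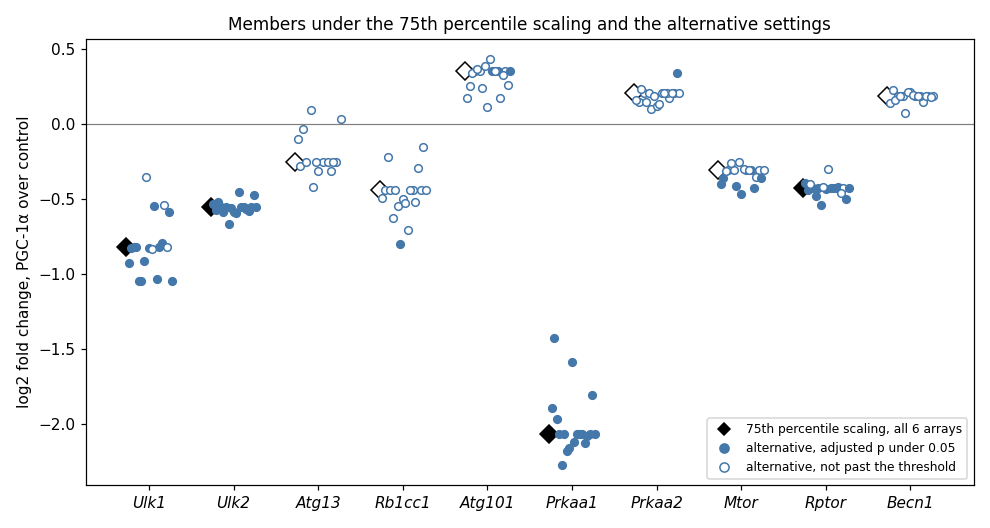
Log2 fold change of each member (x axis) under 75th percentile scaling with all 6 arrays (diamonds) and under each alternative setting (circles), filled where the adjusted p was under 0.05. Ulk2 and Prkaa1 are filled throughout, while Ulk1, Rptor, Mtor, Atg101, Prkaa2 and Rb1cc1 hold both filled and open points.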

How the data were processed

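The samples were 6 Agilent 1-colour arrays of LPS-treated BV2 cell RNA, 3 control and 3 with PGC-1α overexpression, grouped by their labels. The members and gene lists were chosen with earlier results of these data known. The authors scanned the arrays with Agilent Feature Extraction 11.5.1.1, and the deposited scanner files hold its background-subtracted green intensity per spot, with no scaling between arrays. A deposited table of log2 values, normalized between arrays by the authors in GeneSpring in a way not given further, was used as an alternative. The labels name Cy3 as the dye and the labelling protocol Cy5, and the files hold the green channel.

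From the intensity, log2 values were taken and each array's 75th percentile over non-control spots subtracted. Spots the scanner marked as non-uniform or population outliers were left out and spots of a probe averaged. Accessions were matched to RefSeq genes without their version. A probe was tested with values on at least 2 arrays per group and signal well above background on all 3 arrays of a group, the brightest such probe standing for its gene. Groups were compared with limma 3.58.1 in R 4.3.3 (lmFit, eBayes, two-sided, Benjamini-Hochberg over all 17172 genes or 24824 probes, threshold 0.05), tested on simulated data. Named were all members, core genes of each list, and each list's highest and lowest called gene. The alternatives were median, quantile and normexp settings, 2 other dim-probe filters, averaging a gene's probes, slide or replicate as a block, a variance trend, the authors' table and leaving out each array. Keeping outlier spots was added after seeing the data. The 6 arrays limit the precision, and no spot was saturated. Figures were drawn with matplotlib.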

Additional observations from a re-analysis of the deposited data

How the results depend on the processing

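Under 18 alternative settings, Prkaa1 and Ulk2 kept direction and call throughout. With no filter on dim probes, 2 members fell (Ulk2 and Prkaa1), and Ulk1 stayed at -0.82 with a limma adjusted p of 0.0705. In the setting that required signal well above background on all arrays, with the mean of a gene's probes, with the slide as a block and with a variance trend, 1 member was higher (Atg101). With the replicate number as a block, Ulk1 gave -1.05 (limma adjusted p = 0.00215) and 4 members fell, the same number as without it. Control array 3 had no value for the Ulk1 probe used, so PGC-1α array 3 did not enter this Ulk1 difference. It is the same -1.05 as within slide 1, and the slide block gives it too. Deviations of same-numbered arrays correlated at -0.16, 0.07 and 0.60, and control array 1 correlated best with PGC-1α array 2 (0.50), so the numbers were not taken to pair the arrays. Arrays 3 of both groups also share slide 2. Leaving out 1 array at a time gave 2 to 5 members lower and 0 to 1 higher, and Ulk1 from -1.05 to -0.35. The call count over all genes stayed within 1.5 times of 9637, and of those called 50.8% were higher after quantile normalization, 50.7% in the authors' table and 46.0% with normexp and quantile normalization, against 65.3%.

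Several small differences changed sign. Atg13 was 0.029 with the slide block and 0.090 with the replicate block. Under median scaling Stk11 was at -0.079, Deptor at -0.088 and Tsc2 at -0.0024. Under quantile normalization Sqstm1 was at -0.026, Stk11 at -0.27, Akt1s1 at -0.034, Deptor at -0.12 and Tsc2 at -0.081, with normexp added they were at -0.020, -0.25, -0.062, -0.060 and -0.11, and in the authors' table at -0.025, -0.26, -0.028, -0.11 and -0.073. With the mean of a gene's probes Akt1s1 was at -0.073 and Deptor at -0.65. Leaving out 1 array at a time gave Atg14 from -0.13 to 0.054, Stk11 from -0.039 to 0.12, Akt1s1 from -0.0080 to 0.27, Deptor from -0.075 to 0.080 and the Rb1cc1 probe A_51_P332100 from -0.48 to 0.073. With the mean of a gene's probes the calls of Mitf (-0.23), Ulk3 (0.15), Ulk4 (-0.27) and Sqstm1 (0.029) were lost. Leaving out 1 array ended the call of Gabarapl1 and Tsc1 for 5 of the 6 arrays, of Ulk3, Ulk4 and Rptor for 4, and of Mlst8, Esrra and Prkag3 for 3. The causes were not tested.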
